A study of Mus musculus with 6 samples.

Results

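A set of 40 mouse genes for type I interferon signalling, nucleic acid sensing and antiviral defence was followed in SVEC4-10 cells, out of 55536 genes listed in each library. Members are a list of gene names, matched through the Ensembl identifiers of GENCODE M21 (GRCm38), and all 40 were found. The list uses no threshold on a measured value, but it was drawn up with earlier results of these data known. By role they are 10 genes of receptors and signalling, 6 sensors of foreign nucleic acid or their cofactors, 21 antiviral effectors and 3 chemokines. SVEC4-10 is an immortalised, SV40-transformed mouse line labelled as endothelial, and all libraries came from this single line, grown in medium with fetal bovine serum. The treated group consists of 3 libraries of cells kept with nattokinase for 24 hours. Nattokinase is a secreted protease of Bacillus subtilis, known from fermented soybeans for its action on fibrin. The control group consists of 3 libraries of untreated cells. The labels state no dose. Whether the replicates of a group came from different cultures is not stated either, and p-values therefore speak of the spread among these 6 libraries, part or all of which may be technical. Transcript levels are given as FPKM, the reads of a gene scaled by its exon length and by the assigned reads of the library.

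Type I interferons are secreted proteins that warn cells of viral infection. They bind a receptor made of IFNAR1 and IFNAR2, whose kinases TYK2 and JAK1 phosphorylate STAT proteins, among them STAT2. STAT2 and IRF9 are parts of the complex ISGF3, which binds the interferon-stimulated response element in promoters of the effector genes. Endothelial cells respond to interferon, and a low tonic level of signalling keeps many of these genes expressed in uninfected cultures.

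Between 15044778 and 18341370 reads lay behind the values of a library. The members together took 0.398%, 0.382% and 0.382% of the reads in the nattokinase libraries and 0.426%, 0.438% and 0.445% in the control libraries. Protein-coding genes took 98.3% to 98.4% of the reads in the nattokinase libraries and 95.4% to 96.7% in the control libraries, and each count of calls was also taken after rescaling to equal protein-coding totals. Of 8 endothelial markers 0 reached 1 FPKM in any library, and 4 of them (Tie1, Erg, Cldn5 and Emcn) had 0 reads throughout. Pecam1, the gene of CD31, had at most 3 reads per library, and the list summed to 0.104 to 0.155 FPKM with nattokinase and 0.0662 to 0.218 FPKM in controls. The endothelial label is thus not borne out by these markers. All 6 fibroblast and mural markers passed the filter, and their summed level was 1849 to 1920 FPKM in nattokinase libraries and 2067 to 2215 FPKM in control libraries, most of it from Col1a1. Of the 6, Col3a1 was called lower (log2 fold change −0.58) and the other 5 were not called, with Col1a1 and Col1a2 at −0.18 and −0.04 and Pdgfra, Pdgfrb and Dcn at 0.14, 0.18 and 0.03. Of 8 leukocyte markers 5, including Ptprc, Adgre1, Itgam and Cd3e, had 0 reads in all 6 libraries. The summed leukocyte list stood at 2.36 to 2.80 FPKM in nattokinase libraries and 1.26 to 1.604 FPKM in control libraries, most of it from Cd68, a lysosomal protein gene. Cd68 was the only leukocyte marker that reached the filter, and it was called higher with nattokinase (log2 fold change 0.65). The part of the fibroblast and leukocyte lists in the results was not tested. In bulk RNA, fewer cells with a transcript and less of it per cell cannot be told apart.

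The promoters were searched for the core of the response element, and stretches are printed for 5 genes that fell and 1 neighbour that did not. RefSeq windows of 250 bases before to 50 after the start site (GRCm38.p6) were at hand for 31 of the 40 members. The core of the element was searched on both strands as GAAANNGAAA, and overlapping matches were each counted. It was found in 13 of the 31 members (41.9%), against 3.99% of the 27025 genes with such a window. The list was chosen for genes of this pathway, so contrasts with all genes are no test of these libraries. Among members lower with nattokinase 6 of 10 with a window held it, and among members tested and not past the threshold 7 of 20 did. The matches of Ifih1, Ddx58 and Eif2ak2, which are among these 7, lay after the start site. Those of all other members with a match lay before it, also in Ifit1, Cxcl10, Oas3 and Rsad2, which were not past the threshold. The stretches below run 5′ to 3′ along the strand of the gene from up to 30 bases before the first match to at most 30 after the last, and never past the start site. Capitals mark the matches. The first 5 belong to the lower members with the smallest p and a match, and Ifit1, added after its values were seen, stands beside its cluster neighbours.
Stat2 (chr10:128270248-128270315, plus strand): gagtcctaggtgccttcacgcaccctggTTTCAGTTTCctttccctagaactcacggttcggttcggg
Ifit3b (chr19:34607739-34607842, plus strand): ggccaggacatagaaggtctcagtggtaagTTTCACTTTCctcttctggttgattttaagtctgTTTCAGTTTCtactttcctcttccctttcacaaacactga
Ifit3 (chr19:34583343-34583446, plus strand): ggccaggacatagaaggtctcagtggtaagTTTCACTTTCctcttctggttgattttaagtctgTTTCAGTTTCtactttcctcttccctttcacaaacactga
Oas1a (chr5:120907526-120907575, minus strand): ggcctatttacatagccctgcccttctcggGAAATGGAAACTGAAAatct
Isg15 (chr4:156200845-156200926, minus strand): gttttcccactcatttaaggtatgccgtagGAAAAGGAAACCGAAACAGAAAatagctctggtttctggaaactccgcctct
Ifit1 (chr19:34640755-34640843, plus strand): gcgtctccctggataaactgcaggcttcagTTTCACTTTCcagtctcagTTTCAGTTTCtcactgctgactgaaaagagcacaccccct
The printed stretches of Ifit3 and Ifit3b were the same in all 104 bases. In a global alignment of their windows 258 of the 300 bases were identical, with 80 gap positions. The first match began at −156 from the start site in Ifit3 and at −188 in Ifit3b, so the windows are offset. One spelling of the core, GAAACTGAAA on either strand, stood in the windows of 6 members (Bst2, Ifit1, Ifit3, Ifit3b, Oas1a and Stat2), against 0.263% of all genes with a window. A match is a description of these letters and not evidence of binding.

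Of the 40 members 37 reached the filter of at least 1 FPKM in at least 3 libraries, and 13 of these were lower with nattokinase while 0 were higher at a limma adjusted p of 0.05. Among all 10913 genes tested 8.85% were called in either direction, 3.24% lower and 5.61% higher. At an unadjusted p under 0.05, 18 members were lower and 0 were higher. The median log2 fold change of the tested members was −0.12, on the scale of log2(FPKM + 1), where that of all genes tested was 0.01. A log2 fold change was below 0 for 31 of the 37 members, against 45.9% of all genes tested, and this number was 29 to 33 under the other settings that tested the same 37. The falls were moderate. The level in nattokinase cells was between 0.558 and 0.859 of that in control cells for the 13, with 1 of them, Zbp1, below 0.667 of it. In 20 of the 37 members every nattokinase library lay below every control library (11.4% of all genes tested), and in 1 member, Ifnar1, every nattokinase library lay above (17.4%). None of the 37 reached the filter through 1 group alone, as the lowest value among them was 3.24 FPKM, for Oasl1 in nattokinase replicate 3. Mx1, which missed the filter, is given below with its reads. The list holds genes known to respond together and was chosen with earlier results in view, so the 13 of 37 describe these genes and are not independent results.

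**Figure D1:**
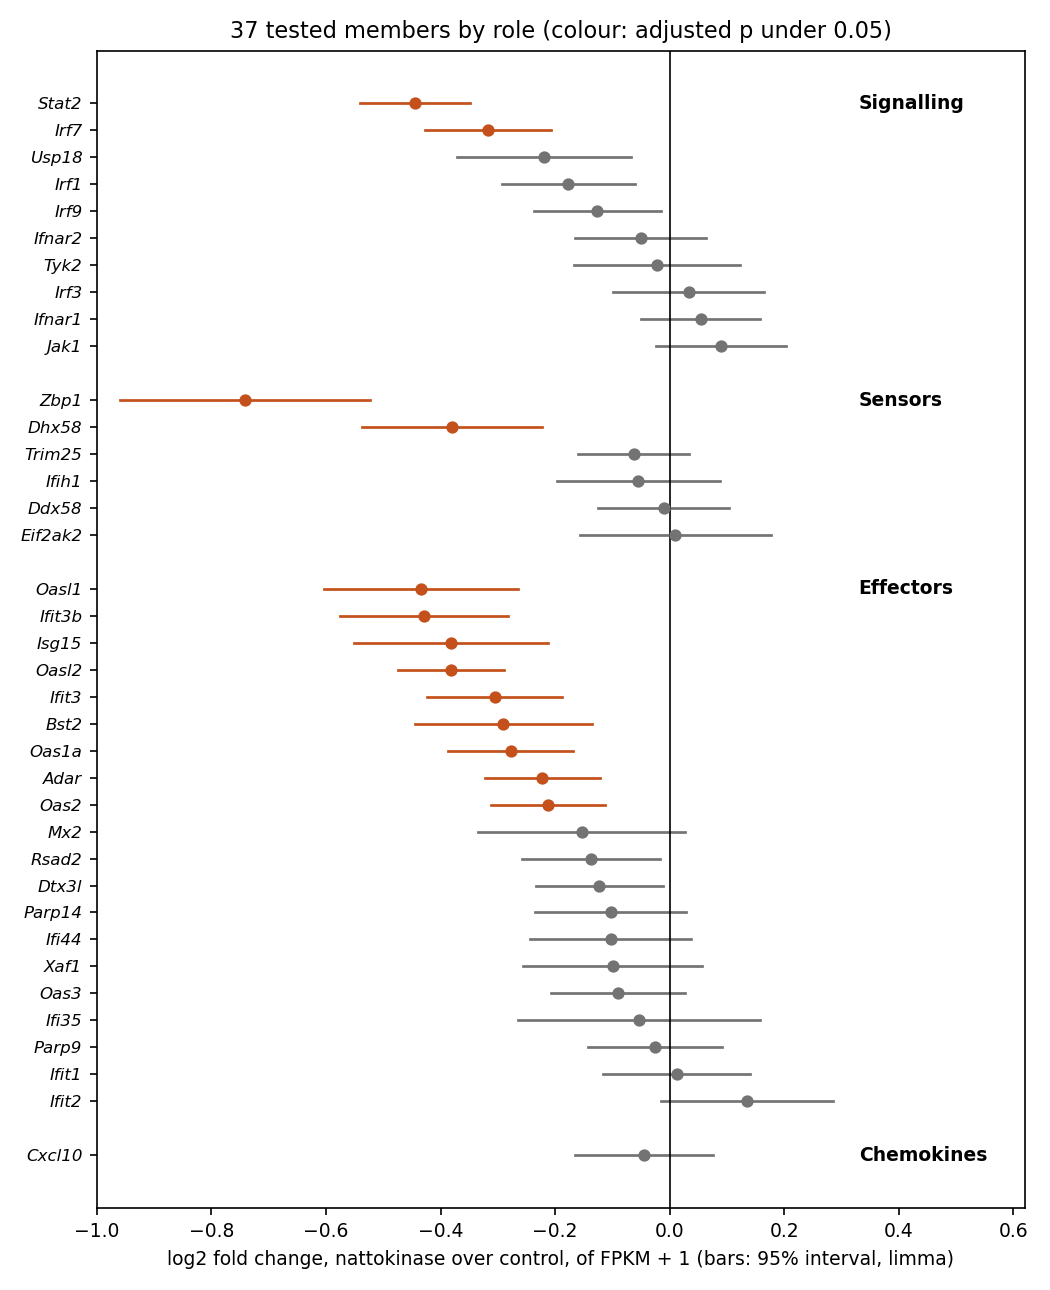
Log2 fold change of log2(FPKM + 1), nattokinase over control, for the 37 tested members by role, each with its 95% interval from limma (3 libraries per group). The 13 coloured genes, from Zbp1 at −0.74 to Oas2 at −0.21, lie left of 0 and the 24 grey ones, not past the threshold, run from −0.22 to 0.14.

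**Figure D2:**
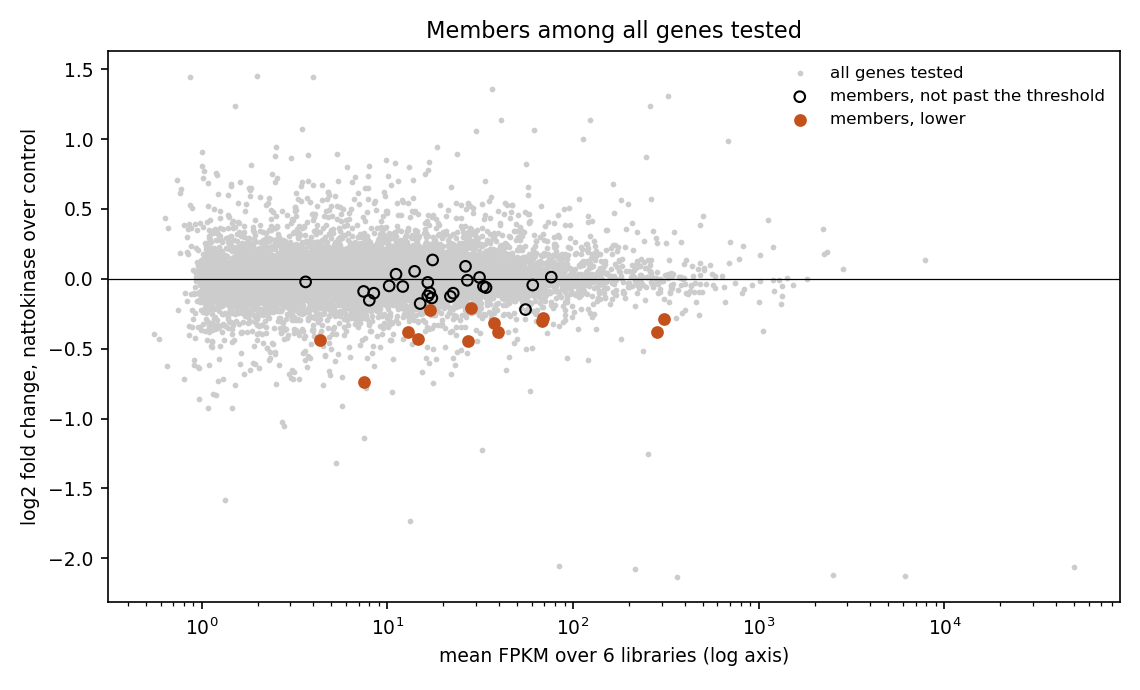
Log2 fold change, nattokinase over control, against the mean FPKM over 6 libraries on a log axis for all 10913 genes tested (grey), with the members on top. The lower members span mean levels from that of Oasl1 to that of Bst2, and the 37 lie between −0.74 and 0.14 where all genes run from −2.14 to 1.45.

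Interferon genes themselves were almost silent. Of 21 annotated interferon genes 4 had any read and 0 reached 1 FPKM in any library. Ifnb1, which encodes interferon beta, had 1, 2 and 2 reads in nattokinase libraries and 6, 4 and 7 reads in control libraries, a ratio per assigned read of 0.261 with a 95% counting interval of 0.0752 to 0.736. Ifna4, an interferon alpha gene, had 4, 5 and 5 reads in nattokinase libraries and 2, 3 and 1 in control libraries, with a ratio of 2.07 (0.746 to 6.56). These 2 genes are named because of their reads, and the intervals cover counting error only. Neither reached the filter, and without it limma gave Ifnb1 an adjusted p of 0.13 (unadjusted p 0.0039) and Ifna4 one of 0.39. Ifng had 0 reads in all libraries.

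The receptor chains and their kinases differed little. Ifnar1, the lower-affinity receptor chain, had 14.2, 14.4 and 14.3 FPKM in nattokinase cells and 13.9, 14.0 and 13.3 FPKM in control cells, with a log2 fold change of 0.05 and a 95% interval of −0.05 to 0.16. Ifnar2, the ligand-binding chain, had 10.3, 9.72 and 10.1 FPKM in nattokinase cells against 10.0, 10.6 and 10.6 FPKM in control cells (log2 fold change −0.05, interval −0.17 to 0.06). The groups were apart for Ifnar1, by a difference whose interval includes 0, and they overlapped for Ifnar2. Jak1 averaged 27.2 ± 1.08 FPKM with nattokinase and 25.5 ± 1.09 FPKM in controls (SD, n = 3 each), and its log2 fold change of 0.09 had an interval of −0.02 to 0.20. Tyk2 was the scarcest tested gene of the signalling group, at 3.59 ± 0.160 FPKM with nattokinase and 3.66 ± 0.210 FPKM in controls. None of these 4 passed the limma test (adjusted p from 0.33 for Jak1 to 0.88 for Tyk2), and the sign for Tyk2 changed under 2 other settings.

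Stat2 fell, whereas the gene of its partner Irf9 did not pass the test. Stat2 (chr10:128270559-128292849) had 23.6, 22.2 and 22.9 FPKM in nattokinase cells and 31.4, 31.6 and 31.6 FPKM in control cells. Every treated library was thus lower than every control, and the controls were almost level with each other. Its log2 fold change was −0.45 (SE 0.043, limma adjusted p = 0.00032). Irf9, the DNA-binding partner, had 21.2, 20.7 and 20.6 FPKM with nattokinase against 21.8, 24.1 and 22.7 FPKM in controls. The groups of Irf9 did not overlap, yet its log2 fold change of −0.13 (interval −0.24 to −0.02) did not pass the threshold (limma adjusted p = 0.16).

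Among the interferon regulatory factors of the set only Irf7 passed the threshold, and only Irf3 had overlapping groups. Irf7 (chr7:141262706-141266481), the factor that amplifies interferon production and is itself an interferon target, had 33.2, 32.5 and 34.4 FPKM in nattokinase cells and 39.7, 42.1 and 43.6 FPKM in control cells. All treated values were lower, and the log2 fold change was −0.32 (SE 0.049, limma adjusted p = 0.0034). Exons of Irf7 overlap those of Phrf1 on the other strand, and Phrf1 stood at 8.18 ± 0.0427 FPKM with nattokinase and 8.29 ± 0.0274 FPKM in controls (SD, n = 3 each). Irf1, a short-lived factor induced by interferons, averaged 14.0 ± 0.530 FPKM with nattokinase and 16.0 ± 0.715 FPKM in controls (log2 fold change −0.18, limma adjusted p = 0.068). Every treated library of Irf1 lay below every control, and its interval was −0.29 to −0.06. Irf3, the constitutive factor that sensors activate, averaged 11.3 ± 0.0838 FPKM with nattokinase and 11.0 ± 0.830 FPKM in controls, with overlapping groups and a log2 fold change of 0.03 whose sign changed without control replicate 1.

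Usp18 encodes the protease that removes ISG15 from proteins and dampens signalling at IFNAR2. It had 52.3, 51.1 and 49.9 FPKM in nattokinase cells and 53.0, 62.6 and 64.0 FPKM in control cells. Control replicate 1 lay close to the treated libraries, and the log2 fold change of −0.22 had a limma adjusted p of 0.080. Usp18 and Irf1 passed the threshold after rescaling to protein-coding totals, with median-of-ratios scaling, with limma-voom on the reads, and without control replicate 1.

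**Figure D3:**
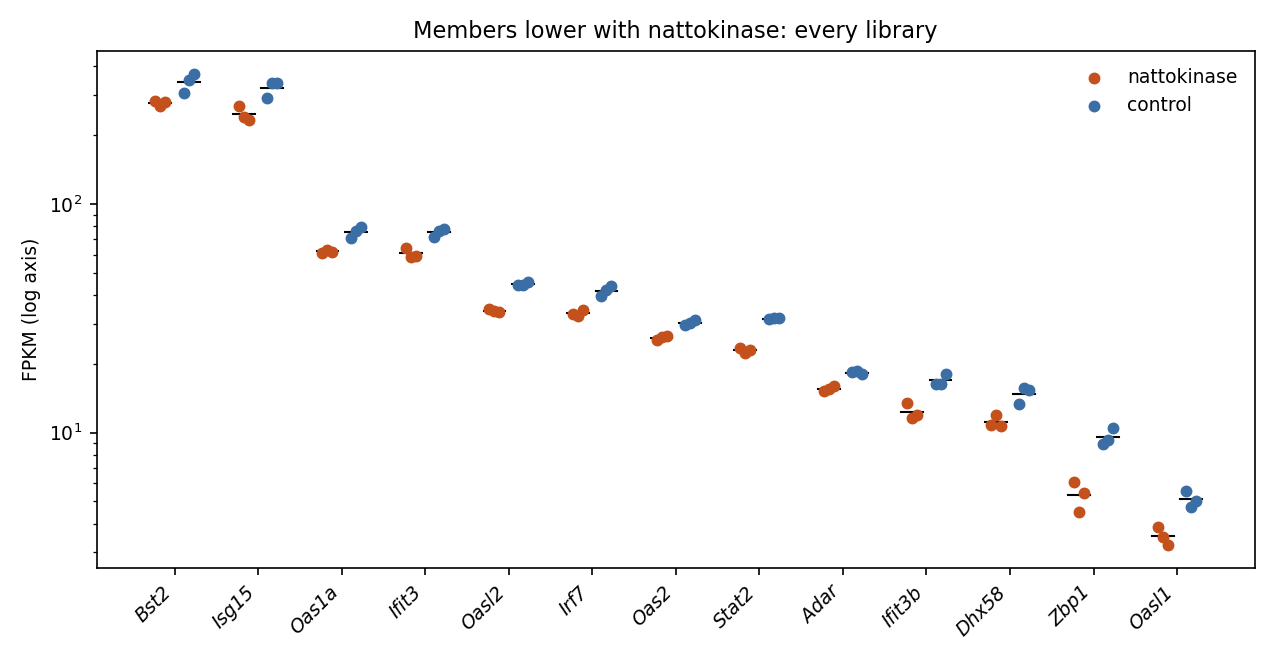
FPKM of the 13 members lower with nattokinase, on a log axis, in each of 3 nattokinase and 3 control libraries (points), with group means (bars). In every gene the 3 nattokinase points lie below the 3 control points.

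Among the sensors, the genes of the main cytosolic RNA sensors stayed near the control level, whereas Zbp1 and Dhx58 were lower. Zbp1 (chr2:173206612-173218923), which encodes a receptor for left-handed nucleic acid that can trigger necroptosis, had 6.10, 4.50 and 5.44 FPKM in nattokinase cells and 8.88, 9.30 and 10.5 FPKM in control cells. This was the deepest fall of the set, to 0.558 of the control mean, with a log2 fold change of −0.74 (SE 0.097, limma adjusted p = 0.0018). Dhx58 (chr11:100694884-100704271), which encodes LGP2, a regulator of the RNA sensors, had 10.8, 11.9 and 10.6 FPKM in nattokinase cells and 13.3, 15.7 and 15.4 FPKM in control cells. Control replicate 1 was again the lowest control, still above each treated library, and the log2 fold change was −0.38 (SE 0.070, limma adjusted p = 0.0086). The calls of Dhx58, Ifit3, Oas1a and Oasl1 were lost in 1 of 14 alternatives, that with no filter on low values (adjusted p 0.085, 0.057, 0.053 and 0.066). Ddx58, the gene of RIG-I, averaged 26.9 ± 1.64 FPKM with nattokinase and 27.1 ± 0.360 FPKM in controls, and Ifih1, the gene of MDA5, averaged 11.9 ± 0.786 FPKM with nattokinase and 12.4 ± 0.759 FPKM in controls (SD, n = 3 each). Their intervals were −0.13 to 0.10 for Ddx58 and −0.20 to 0.09 for Ifih1 on the log2 scale. Trim25, a ubiquitin ligase that acts with RIG-I, had a log2 fold change of −0.06 and Eif2ak2, the gene of the kinase PKR, one of 0.01, both with overlapping groups. The sign changed in 4 of 14 alternatives for Eif2ak2, protein-coding totals among them, and without nattokinase replicate 2 for Ddx58.

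The Ifit genes, whose proteins bind viral RNA ends or each other, lie in 1 cluster on chromosome 19, and 2 of the 4 fell. Ifit3 (chr19:34583531-34588731) had 64.5, 58.8 and 59.3 FPKM in nattokinase cells and 72.0, 76.3 and 78.0 FPKM in control cells (log2 fold change −0.31, SE 0.053, limma adjusted p = 0.0062). Ifit3b (chr19:34607970-34613401) had 13.4, 11.6 and 12.0 FPKM in nattokinase cells and 16.3, 16.4 and 18.1 FPKM in control cells (log2 fold change −0.43, SE 0.066, limma adjusted p = 0.0033). Both were lower in each treated library, and they are close copies: 51.2% of the 50-base words of Ifit3 transcripts also occur in Ifit3b, so the division of reads between them is uncertain. Ifit1, the best known of the family, had 80.6, 77.5 and 72.0 FPKM in nattokinase cells and 71.6, 77.1 and 79.4 FPKM in control cells. The groups overlapped, with a log2 fold change of 0.01 (interval −0.12 to 0.14), whose sign changed in 4 of 14 alternatives, protein-coding totals among them. Ifit2 had 18.5, 19.3 and 17.3 FPKM in nattokinase cells and 18.3, 15.4 and 16.3 FPKM in control cells, the highest log2 fold change of the 37, at 0.14 (interval −0.02 to 0.29, limma adjusted p = 0.27).

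In the oligoadenylate synthetase family, whose OAS enzymes make the signal that activates RNase L, 4 of 5 members fell. Oas1a (chr5:120896256-120907521) had 61.4, 63.3 and 61.7 FPKM in nattokinase cells and 71.4, 76.3 and 79.0 FPKM in control cells (log2 fold change −0.28, limma adjusted p = 0.0069). It shares 57.6% of its 50-base words with Oas1g, which is uncertain for the same reason and averaged 17.0 ± 1.48 FPKM with nattokinase and 21.7 ± 1.03 FPKM in controls (SD, n = 3 each). Oas2 (chr5:120730333-120749853) had 25.4, 26.3 and 26.4 FPKM in nattokinase cells and 29.6, 30.1 and 31.3 FPKM in control cells. Its groups were apart but its log2 fold change, −0.21, was the smallest called (limma adjusted p = 0.016), and the call was lost without any single library other than control replicate 1 and with no filter (adjusted p 0.0052 to 0.076 over 14 alternatives). Oas3 had 7.02, 7.44 and 7.09 FPKM in nattokinase cells and 7.65, 7.83 and 7.65 FPKM in control cells, a log2 fold change of −0.09 that did not pass (limma adjusted p = 0.34).

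The OAS-like genes carry ubiquitin-like domains and also fell. Oasl1 (chr5:114923240-114937915), reported in mouse to restrain translation of Irf7, had 3.85, 3.48 and 3.24 FPKM in nattokinase cells and 5.58, 4.71 and 5.04 FPKM in control cells (log2 fold change −0.43, limma adjusted p = 0.0065). Oasl2 (chr5:114896936-114912234) had 34.7, 33.9 and 33.8 FPKM in nattokinase cells and 44.3, 44.5 and 45.6 FPKM in control cells (log2 fold change −0.38, SE 0.041, limma adjusted p = 0.00050). The replicates of Oasl2 lay within 2 FPKM of each other in either group.

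Isg15 and Bst2, the most abundant members, were both lower. Isg15 (chr4:156199424-156200818), which encodes a ubiquitin-like modifier, had 269, 241 and 232 FPKM in nattokinase cells and 291, 337 and 340.2 FPKM in control cells. The treated libraries lay below all controls, with a log2 fold change of −0.38 (SE 0.076, limma adjusted p = 0.013), and the call was lost without nattokinase replicate 2 or 3, without control replicate 2 and with no filter (adjusted p 0.00051 to 0.11 over 14 alternatives). Bst2 (chr8:71534255-71537456), the gene of tetherin, which holds budding virions at the cell surface, had 284, 269.6 and 280.5 FPKM in nattokinase cells and 305, 348 and 369.8 FPKM in control cells. Its controls were widely spread, the log2 fold change was −0.29 (SE 0.069, limma adjusted p = 0.030), and the call was lost without any single library except control replicate 1, with the replicate block and with no filter (adjusted p 0.0013 to 0.16 over 14 alternatives). Adar (chr3:89715022-89753446), whose enzyme edits double-stranded RNA and keeps cellular RNA from the sensors, had 15.2, 15.5 and 16.0 FPKM in nattokinase cells and 18.4, 18.5 and 18.1 FPKM in control cells. The groups were compact and apart, the log2 fold change was −0.22 (limma adjusted p = 0.013), and the call was lost without nattokinase replicate 2 or control replicate 2 and with no filter (adjusted p 0.0023 to 0.062 over 14 alternatives). Exons of Adar overlap those of Chrnb2, which had at most 10 reads per library.

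The remaining effectors did not pass the test. Rsad2, the gene of viperin, averaged 16.5 ± 0.843 FPKM with nattokinase and 18.2 ± 0.768 FPKM in controls (log2 fold change −0.14, limma adjusted p = 0.16), and its groups did not overlap. Parp9 and Dtx3l, divergent neighbours whose proteins form a complex, had log2 fold changes of −0.03 and −0.12, and Parp14 beside them had −0.10. For Dtx3l and Parp14 every nattokinase library lay below every control (limma adjusted p = 0.17 and 0.34), and the groups of Parp9 overlapped. Exons of Parp9 and Dtx3l overlap on opposite strands, so part of their reads cannot be told apart. Ifi44, Xaf1 and Ifi35 had log2 fold changes of −0.10, −0.10 and −0.05, all with overlapping groups. The signs for Parp9 and Ifi35 changed in 1 alternative each. Mx2 averaged 7.50 ± 0.360 FPKM with nattokinase and 8.49 ± 1.06 FPKM in controls (log2 fold change −0.15, limma adjusted p = 0.30), and it passed without control replicate 1. Mx1, a dynamin-like inhibitor of influenza virus in mice, missed the filter with 49, 40 and 50 reads in nattokinase libraries and 81, 53 and 62 reads in control libraries. The ratio of these reads per assigned read was 0.628, with a counting interval of 0.502 to 0.785, and limma without the filter gave Mx1 an adjusted p of 0.26 (unadjusted p 0.017). Over the 24 tested members that did not pass, the 95% intervals together ran from −0.37 to 0.29, and 2 of them (Usp18 and Mx2) reached below the log2 value of a fold of 0.8.

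Of the 3 CXCR3-binding chemokine genes only Cxcl10 was well expressed. It had 64.1, 56.6 and 58.6 FPKM in nattokinase cells and 61.1, 63.3 and 60.4 FPKM in control cells, with overlapping groups (log2 fold change −0.04, interval −0.16 to 0.08). Cxcl11 had 19, 13 and 10 reads in nattokinase libraries and 9, 3 and 5 reads in control libraries, a ratio of 2.19 per assigned read with a counting interval of 1.219 to 4.10. It was below the filter, its FPKM ranges overlapped, and limma without the filter gave an adjusted p of 0.54. Cxcl9, the chemokine most dependent on interferon gamma, had 1 to 4 reads per library.

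Other genes of the pathway, none of them members, were counted from a separate list of 58. Of these 48 reached the filter, 9 were lower and 2 were higher with nattokinase, with a median log2 fold change of −0.11. Of all genes tested 3.24% were lower and 5.61% higher, so the 2 higher genes make up no larger a share of the list than the higher genes do of all genes. Socs3, a feedback inhibitor that acts mainly on gp130 cytokine receptors, had 12.1, 12.1 and 12.4 FPKM in nattokinase cells and 17.8, 16.3 and 16.9 FPKM in control cells (log2 fold change −0.44, SE 0.049, limma adjusted p = 0.00062). Ube2l6, the conjugating enzyme for ISG15, averaged 44.1 ± 2.69 FPKM with nattokinase and 54.2 ± 3.17 FPKM in controls (log2 fold change −0.29, limma adjusted p = 0.014), whereas Herc6, the mouse ISG15 ligase, averaged 2.03 ± 0.255 FPKM with nattokinase and 2.05 ± 0.188 FPKM in controls (SD, n = 3 each). Parp10, Cmpk2, Pml and Trim30a were lower too, with log2 fold changes of −0.33, −0.27, −0.20 and −0.22, and Rnf213 and Lgals3bp, named although outside the 6 smallest p, also passed. Of the 9 lower genes only Socs3 kept its call in all 14 alternatives, and every other one lost it with no filter on low values. The calls of Ube2l6, Pml, Trim30a, Rnf213 and Lgals3bp were each also lost without 3 or more single libraries, nattokinase replicate 3 among them, and that of Cmpk2 without nattokinase replicate 3 (adjusted p up to 0.11, 0.084, 0.12, 0.17, 0.15 and 0.057 over the alternatives). Jak2, a kinase of the interferon gamma receptor, had 13.5, 13.5 and 14.1 FPKM in nattokinase cells and 12.6, 9.70 and 10.9 FPKM in control cells (log2 fold change 0.30, limma adjusted p = 0.047). Ifngr2, a chain of that receptor, averaged 20.5 ± 0.610 FPKM with nattokinase and 18.0 ± 0.580 FPKM in controls (log2 fold change 0.18, limma adjusted p = 0.044). The call of Ifngr2 was lost without any single library and in 11 of 14 alternatives in all, and that of Jak2 was lost in 10 of 14, including without any single library except control replicate 1. Both were lost with equal protein-coding totals (limma adjusted p up to 0.15 for Ifngr2 and 0.23 for Jak2 over the alternatives). The next 4 in that direction, Samhd1, Traf3, Tbk1 and Ifngr1, did not pass and had log2 fold changes of 0.12, 0.14, 0.16 and 0.09.

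Ratios of 2 genes within a library do not depend on how libraries are scaled, and 8 pairs were taken after their values were seen. The ratio of Ifit3 to Ifit1 FPKM was 0.801, 0.759 and 0.824 in nattokinase libraries and 1.01, 0.990 and 0.983 in control libraries. The ratio of Stat2 to Irf9 was 1.11, 1.07 and 1.11 in nattokinase libraries and 1.44, 1.31 and 1.39 in control libraries. In both pairs the treated libraries lay below all controls. Both pairs set a called gene beside an uncalled one. The ratios of the 8 pairs thus describe the same values again and are no separate test. The same separation held for Ifit3b to Ifit1, Ifit3b to Ifit3, Dhx58 to Ifih1, Oasl2 to Oas3 and Isg15 to Usp18, and the ratio of Dtx3l to Parp9 overlapped. A two-sided exact permutation test gave p = 0.10 for each separated pair, the smallest that 3 libraries against 3 allow (0.11 adjusted over the 8 pairs), and 0.30 for Dtx3l to Parp9.

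**Figure D4:**
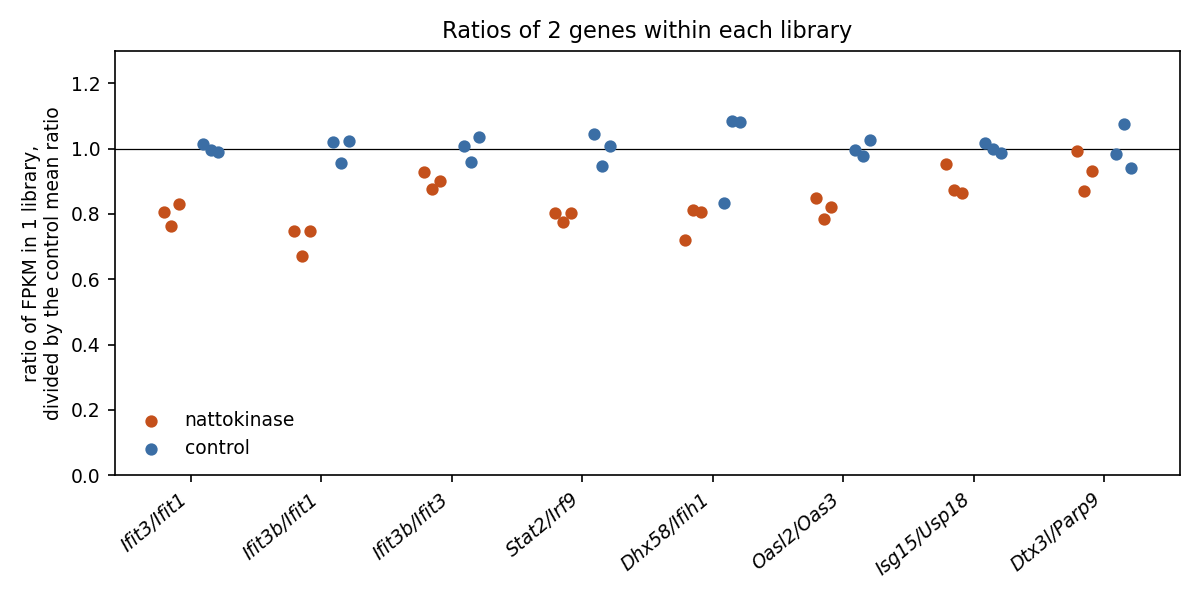
FPKM ratios of 8 gene pairs within each of 3 nattokinase and 3 control libraries, each divided by the mean control ratio of its pair (line at 1). For 7 pairs all nattokinase points lie below all control points, with Dhx58 to Ifih1 the closest of them, and for Dtx3l to Parp9 they overlap.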

How the data were processed

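The authors deposited FPKM values, 1 table per sample, which they had divided by exon length and library total, as the values show. Multiplied by the merged exon length in GENCODE M21, 100% of values above 0 fell within 0.05 of whole reads. Reads recovered in this way, which may be fragments, give the depth. The submitters' processing notes name HISAT2 2.1.0 and featureCounts 1.6.0 among others, without roles, and a human build, GRCh38, although the identifiers are from mouse. Strand use and RNA selection are not given in the sources used here. Without strand, reads of overlapping genes cannot be told apart.

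Groups and replicate numbers come from the sample titles. Genes that reached 1 FPKM in 3 or more libraries were tested as log2(FPKM + 1) with limma 3.58.1 in R 4.3.3 (intensity trend, robust prior, two-sided), adjusted by Benjamini-Hochberg over all 10913 genes, at 0.05. A log2 fold change on this scale understates the change of low genes. Intervals of reads are exact binomial at 95%. The fit was also run on simulated libraries with 200 changed genes. These were drawn with 1 fixed setting of spread for all genes, so that run does not test the calls given here. Alternatives were other pseudocounts, filters and scalings, limma-voom, a replicate block and leaving out each library. Members and lists were chosen with earlier results of these data known. Values of every library are given for each called member, and the pathway list is named by its 6 smallest p in each direction. Rnf213, Lgals3bp and Herc6 are exceptions, and Herc6 is named beside Ube2l6 and not for its p. Some results are not reported here. Promoter sequences are from RefSeq (GRCm38.p6). Usp18, Dhx58, Zbp1, Mx1, Mx2, Oas2, Parp9, Parp14 and Cxcl11 had no window. Figures were drawn with matplotlib 3.10.9.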

Additional observations from a re-analysis of the deposited data

How the results depend on the processing

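No member was called higher in any of the 14 alternatives, and all 13 lower members kept their direction in each. Of the 13, 5 (Stat2, Irf7, Zbp1, Ifit3b and Oasl2) kept their call in all 14. The number of lower members was 13 with pseudocounts of 0.1 or 0.5 or a filter of 0.3 FPKM, 15 with median-of-ratios scaling, protein-coding totals or limma-voom, 9 to 16 when 1 library was left out, and 5 without any filter on low values, where 24549 genes were tested. Under the replicate block it was 12, with Bst2 lost. Same-numbered libraries did not deviate together (correlations of −0.089, −0.044 and −0.059), so the numbers were not taken to pair the samples.

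The pathway list was less stable. Without a filter 1 gene was lower and 0 higher, and 0 were higher with the filter of 0.3 FPKM, median-of-ratios scaling, protein-coding totals or the replicate block. Lower genes numbered 15 with protein-coding totals, 14 with limma-voom and 5 with the replicate block. When 1 library was left out 2 to 18 genes were lower and 0 to 1 higher. The cause of these differences was not tested. Over all genes, 49.0% of calls were higher with protein-coding totals, against 63.4% as deposited. Depth limits Mx1, Cxcl9, Cxcl11 and the interferon genes.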

Other observations

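Control replicate 1 had the lowest level of the 3 controls in 22 of the 37 tested members (59.5%), against 43.6% of all genes tested. It was the lowest control for Irf7, Usp18, Dhx58, Isg15, Bst2 and Oas1a, among others. Of all members, it was the highest for Oasl1, Mx1, Eif2ak2, Jak1, Ifih1, Ddx58, Ifit2, Ifi44, Parp14 and Cxcl11. Without it 16 members were lower, including Irf1, Usp18 and Mx2 beside the 13, and 0 were higher.

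The pair Ifit3b and Ifit3, whose printed promoter stretches were identical, differed in level. Ifit3b stood at 0.208, 0.196 and 0.202 of the Ifit3 FPKM in nattokinase libraries and at 0.226, 0.215 and 0.232 of it in control libraries. The labels do not state how reads that match both copies were assigned.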
